A study of Homo sapiens with 24 samples.

Results

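The 32 genes described here make up the absorptive program of the gut epithelium: CDX and HNF4 transcription factors, the proteins that build the brush border, and the enzymes, transporters and mucosal proteins that mature enterocytes display. They were listed by gene function, without a threshold on measured values. Earlier results of these data were known when the list was made, so its counts are no independent evidence. The list holds 32 of 60230 genes in the expression table. Of these, 30 were among the 18242 genes with enough reads to be tested. CDX1 and SI were too low for a test.

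All 24 libraries came from tumors grown in mice from AsPC-1, a cell line established from pancreatic ductal adenocarcinoma. Every mouse received 3 oral doses, 1 every other day. The vehicle group (5% DMSO in 95% PEG400) was sampled 2 h after the last dose, and groups given 6 mg/kg IK-595, a molecular glue that holds MEK and RAF together, were sampled at 2, 4, 8, 24 and 48 h. Each group holds 4 tumors, numbered 1 to 4 in the labels, from 4 animals. The only vehicle group was taken at 2 h, so at 4 to 48 h treatment and sampling time cannot be told apart. All tumors derive from 1 cell line, and the stroma is of the mouse host.

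Enterocytes carry a dense array of microvilli, the brush border, on the surface that faces the gut lumen. Bundled actin stiffens each microvillus, protocadherins link neighbouring tips, and the membrane holds digestive enzymes and nutrient transporters. CDX2 and CDX1, homeobox factors, and HNF4A and HNF4G, nuclear receptors, are known drivers of this program in the intestine. Pancreatic ductal tumors often express part of it.

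Depth ran from 10.52 to 20.64 M counts per tumor (M, mega). Keratin, EPCAM and other epithelial tumor markers were summed at 7950 to 17700 CPM (counts scaled to the total of each tumor) in all 24 tumors. Markers of acinar and islet cells stayed under 1 CPM in sum, with 4 to 6 of 8 at 0 in each group, and 8 hepatocyte markers summed to 7.37 to 50.7 CPM. Fibroblast and pericyte markers summed to 33900 CPM in tumor 2 of the 4 h group, the shallowest library, and to 984 to 5890 CPM in the other tumors. Adipocyte, muscle and red cell markers summed to between 2250 and 4060 CPM in 1 tumor each of the 2, 4, 8 and 24 h groups, and to 13.7 CPM at most at 48 h. MAPK output genes, 10 direct readouts of ERK signalling such as DUSP6 and SPRY4, were lower than in vehicle for 8, 9, 10, 6 and 2 of 10 genes at 2, 4, 8, 24 and 48 h. In whole tumors, fewer cells of a type and less RNA per cell cannot be told apart.

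Promoter sequence is shown first, since the listed factors bind DNA near the start sites of their targets. RefSeq (GRCh38.p14) windows from 250 bases before to 50 bases after the start site were on hand for 25 of the 32 genes. Both strands were searched for CDX (TTTATGG or TTTATTG), HNF4 (CAAAGTCCA or GGNCAAAG, which can overlap each other) and HNF1 (GTTAATNAT, the motif of a factor that partners HNF4A). The HNF4 motif was found in 5 of 25 windows (20%) and in 5.11% of all 27305 windows, the CDX motif in 4 of 25 (16%) and in 6.57%, and the HNF1 motif in 2 of 25 (8%) and in 0.751%. CDHR2, EPS8L3, MYO15B, SLC9A3, FABP2 and KRT20, which were higher at 48 h, had no match in their windows. The 150 bases before the start site follow for 5 genes with higher RNA at 48 h, each picked because it holds a match. Bases in a GENCODE exon of the same gene are left out. Sequences run 5′ to 3′ along the gene, with the motif matches in capitals.
TREH, minus strand of chr11:118679691-118679800: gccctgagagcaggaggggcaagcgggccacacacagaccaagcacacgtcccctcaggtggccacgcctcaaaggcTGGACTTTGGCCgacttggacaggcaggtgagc
ALPI, plus strand of chr2:232456003-232456122: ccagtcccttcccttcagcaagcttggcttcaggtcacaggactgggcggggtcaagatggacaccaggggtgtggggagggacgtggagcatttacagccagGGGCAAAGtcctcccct
MUC13, minus strand of chr3:124934752-124934901: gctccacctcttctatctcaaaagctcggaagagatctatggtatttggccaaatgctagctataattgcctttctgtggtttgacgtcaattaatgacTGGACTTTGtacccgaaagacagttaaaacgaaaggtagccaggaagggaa
MYO7B, plus strand of chr2:127535533-127535682: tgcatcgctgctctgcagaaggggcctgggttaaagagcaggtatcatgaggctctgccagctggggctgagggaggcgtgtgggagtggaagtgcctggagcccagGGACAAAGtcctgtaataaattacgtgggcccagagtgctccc
SLC26A3, minus strand of chr7:107803226-107803373: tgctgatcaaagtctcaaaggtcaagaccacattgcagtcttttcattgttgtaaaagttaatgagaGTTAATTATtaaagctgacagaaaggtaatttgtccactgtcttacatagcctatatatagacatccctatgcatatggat
The TREH capitals join 2 overlapping HNF4 matches on the opposite strand, the first base of the joined run lying at position -73. The ALPI match starts at position -47, the MUC13 match at -51 and the MYO7B match at -43. HNF1 matches start at -48 in SLC5A1 and at -83 in SLC26A3. The other HNF4 match lay at -179 of GUCA2A, and the CDX matches lay in the windows of CDX2 itself (-181), MYO1A (-86), SI (-52) and MGAM (-3). No binding was measured, so each match describes letters and not a bound site.

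Against vehicle, 14 of the 30 tested genes were higher and 1 lower at 2 h, where 13.4% of all 18242 genes were higher and 13.6% lower. At 4 h, 8 were higher and 0 lower, against 6.74% and 8.39% of all genes. At 8 h, 15 were higher and 3 lower, against 20.6% and 23.7%. At 24 h, 18 were higher and 1 lower, against 13.7% and 13.8%. At 48 h, 17 were higher and 0 lower, against 5.52% and 4.46%. All calls are from edgeR with adjusted p under 0.05. Of the counts of 0, that at 4 h was 1 gene (EPS8L3) at an unadjusted p under 0.05 and that at 48 h was 0, and DESeq2 gave 0 at both times. The summed epithelial tumor markers were 13800 to 17700 CPM at 48 h and 9790 to 13000 CPM in vehicle, with no overlap, and their part in the 48 h result was not tested.

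The median log2 fold change of the 30 genes was 0.84, 0.37, 0.65, 0.79 and 0.85 at 2, 4, 8, 24 and 48 h, and that of all tested genes was between -0.012 and 0.066. The low-count filter bears on these counts. ALPI, TREH, GUCA2A, KRT20, SLC6A19 and MTTP did not reach its cutoff of 0.547 CPM in all 4 vehicle tumors, so they could be tested only because other tumors did. Among the 24 others, 13 were higher and 0 lower at 48 h, against 6.08% higher and 5.46% lower of 14715 genes that met the same condition. All 5 comparisons share the 4 vehicle tumors.

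**Figure D1:**
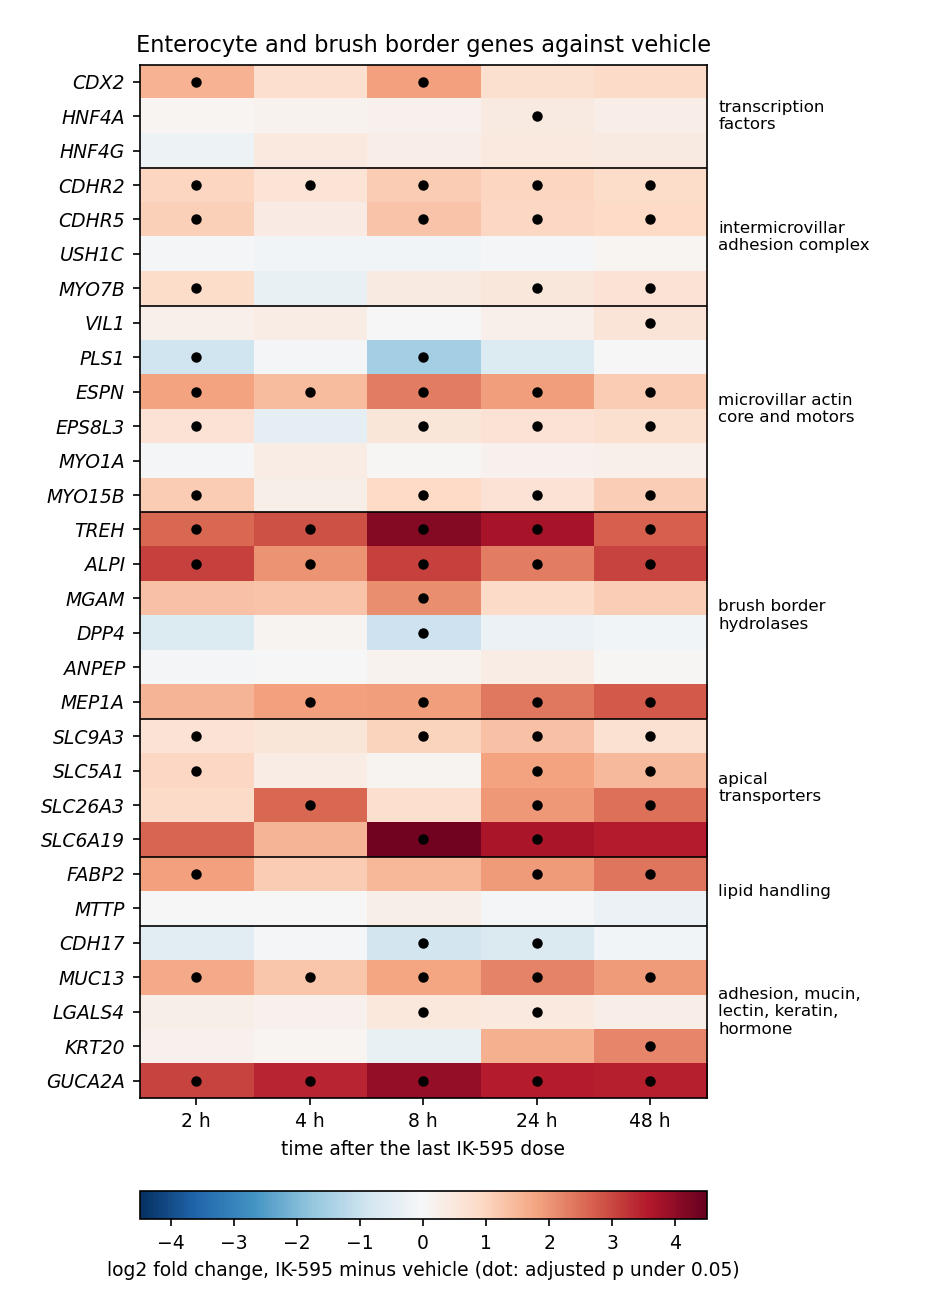
Log2 fold change of 30 tested genes (rows, grouped by role) at 5 times after the last IK-595 dose (columns) against vehicle, with red for higher, blue for lower and a dot where the adjusted p was under 0.05. GUCA2A, ALPI and TREH are red at every time, while PLS1, DPP4 and CDH17 are blue with a dot at 8 h and near white at 48 h.

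Among the transcription factors, CDX2 rose at 2 h and 8 h and HNF4A at 24 h. CDX2, the homeobox gene that specifies intestinal identity, lies at chr13:27962137-27971139 in the GENCODE annotation of GRCh38. Its vehicle tumors held 5.37, 4.65, 6.02 and 8.25 CPM. At 2 h its 4 tumors held 8.75, 17.1, 19.1 and 26.3 CPM, and at 4 h they held 11.1, 9.19, 12.2 and 8.15 CPM. At 8 h they held 15.8, 9.58, 49.4 and 12.96 CPM. At 24 h they held 7.49, 17.5, 5.24 and 9.18 CPM, and at 48 h 5.68, 14.6, 5.56 and 18.8 CPM. All tumors of the 2 h and 8 h groups were above every vehicle tumor, while the 4, 24 and 48 h groups overlapped vehicle. Tumor 3 of the 8 h group was the highest of the 24.

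The log2 fold change of CDX2 was 1.55 (SE 0.50, adjusted p = 0.0252) at 2 h and 1.85 (SE 0.50, adjusted p = 0.00502) at 8 h. It was 0.74 (SE 0.49, adjusted p = 0.33) at 4 h, 0.70 (SE 0.49, adjusted p = 0.304) at 24 h and 0.88 (SE 0.49, adjusted p = 0.306) at 48 h, none of which passed. The call at 8 h was lost without tumor 3, at 1.07 (adjusted p = 0.0545). Leaving out any of 5 single tumors (1, 2 or 3 of vehicle, 3 or 4 of the 2 h group) ended the call at 2 h (adjusted p between 0.0503 and 0.0862). On the deposited TPM values, which correct for the length of the transcripts in use, CDX2 averaged 5.02 in vehicle, 8.98 at 2 h and 9.796 at 8 h, and the log2(TPM + 1) difference did not pass at either time (0.70, adjusted p = 0.274, and 0.64, adjusted p = 0.274). Estimated counts per TPM of CDX2, set against the median gene of each tumor, were 0.47 higher on the log2 scale at 2 h and 0.59 higher at 8 h than in vehicle. These shifts lie outside the middle 90% of 10577 expressed genes, which ran from -0.30 to 0.29 at 2 h and from -0.39 to 0.34 at 8 h. The transcript length that the quantification assigned to CDX2 thus moved with the groups, and its part in the difference was not tested.

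HNF4A, a nuclear receptor that sustains enterocyte differentiation, had a mean of 46.9 TPM in vehicle, against 5.02 TPM for CDX2. Its vehicle tumors held 158, 137, 119.9 and 136 CPM, its 24 h tumors 178, 207, 174 and 177 CPM and its 48 h tumors 167, 182, 183 and 153 CPM. The 24 h tumors were all above vehicle and the 48 h tumors overlapped it. The means were 146 ± 19.9 CPM at 2 h, 155 ± 20.03 CPM at 4 h and 158 ± 11.1 CPM at 8 h (SD, n = 4). HNF4A passed at 24 h alone, at 0.42 (SE 0.12, adjusted p = 0.0132), and its log2 fold change at 48 h was 0.31 (SE 0.12, adjusted p = 0.107), which DESeq2 called (0.31, adjusted p = 0.0385). The unit of measurement turned its direction at 8 h: mean TPM was 32.7, below vehicle, and the log2(TPM + 1) difference was -0.51 (adjusted p = 0.0305), whereas the count-based value was 0.20 (SE 0.12, adjusted p = 0.186). Its mean TPM was also 32.9 at 2 h and 50.6 at 24 h, where the TPM-based difference was 0.06 (adjusted p = 0.855). Its counts per TPM were 0.38 higher at 2 h and 0.47 higher at 8 h on the log2 scale than in vehicle.

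HNF4G, a close relative of HNF4A with overlapping gut targets, passed against vehicle at no time on the counts as deposited. Its vehicle tumors held 56.2, 45.6, 50.3 and 53.5 CPM, its 2 h tumors 47.9, 42.1, 43.2 and 44.2 CPM and its 48 h tumors 67.4, 81.8, 58.5 and 61.5 CPM. The 48 h tumors were all above vehicle, and the log2 fold change was 0.39 (SE 0.19, adjusted p = 0.213). With each tumor's trend with GC content removed, HNF4G was higher at 8 h (0.52, adjusted p = 0.0114), at 24 h (0.595, adjusted p = 0.00795) and at 48 h (0.51, adjusted p = 0.0438). On TPM it had the other direction at 8 h, with a mean of 25.9 TPM in vehicle and 19.6 TPM at 8 h. The step from 2 h to 4 h did pass, at 0.64 (SE 0.19, adjusted p = 0.0249). CDX1, the colonic relative of CDX2, had 0 counts in 23 tumors and 2 counts in tumor 3 of the 8 h group, the tumor with the highest CDX2. For each tumor at 0, up to 3 counts of its total are allowed by counting error.

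**Figure D2:**
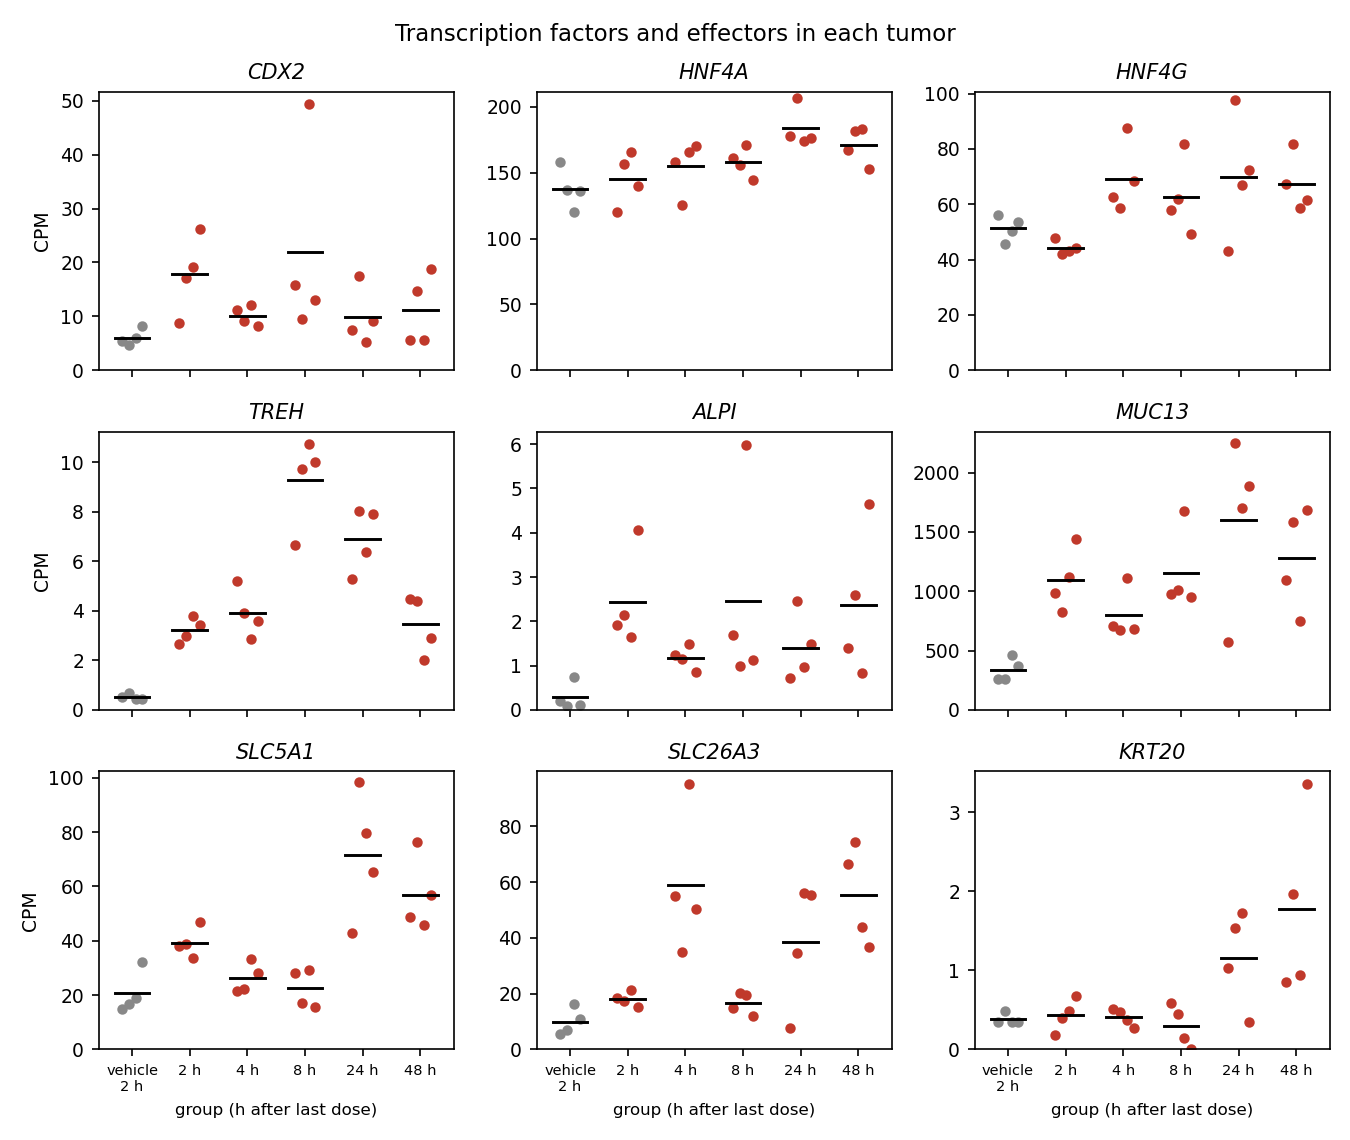
CPM of 3 transcription factors (top row) and 6 effector genes in each of 24 tumors, by group, with a point per tumor and a line at the group mean. CDX2 is above vehicle in all 2 h and 8 h tumors and overlaps it at 48 h, whereas SLC5A1, SLC26A3 and KRT20 are above vehicle in all 48 h tumors.

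The intermicrovillar adhesion complex joins the tips of neighbouring microvilli. CDHR2 and CDHR5, the 2 protocadherins that form the link, rose at 5 of 5 and 4 of 5 times. CDHR2 held 226, 259.5, 289.6 and 254 CPM in the vehicle tumors and 455, 466, 443 and 455 CPM in the 48 h tumors, with no overlap. Its group means were 503 ± 54.2 CPM at 2 h, 397 ± 75.97 CPM at 4 h, 572 ± 86.8 CPM at 8 h and 501 ± 70.3 CPM at 24 h. The log2 fold change was 0.97 (SE 0.14, adjusted p = 7.35e-05) at 2 h, 1.15 (SE 0.14, adjusted p = 1.82e-06) at 8 h and 0.82 (SE 0.14, adjusted p = 0.000678) at 48 h.

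CDHR5 held 185, 212, 281 and 239 CPM in vehicle and 378, 436, 356 and 517 CPM at 48 h, again without overlap. For CDHR5 the log2 fold change was 1.06 (SE 0.18, adjusted p = 0.000321) at 2 h, 0.38 (SE 0.18, adjusted p = 0.158) at 4 h, 1.29 (SE 0.18, adjusted p = 8.43e-06) at 8 h and 0.88 (SE 0.18, adjusted p = 0.00258) at 48 h. MYO7B, the myosin that carries the complex to the tips, held 208, 226, 286 and 264 CPM in vehicle, 240.4, 120.3, 252 and 172 CPM at 4 h and 362, 389.6, 383 and 416 CPM at 48 h. The 48 h tumors lay above every vehicle tumor and the 4 h tumors overlapped vehicle. The log2 fold change of MYO7B was 0.82 (SE 0.18, adjusted p = 0.0026) at 2 h and 0.66 (SE 0.18, adjusted p = 0.0237) at 48 h. The call at 48 h was lost, at 0.48 (adjusted p = 0.0595), when each tumor's trend with GC content was removed, and also when tumor 1 or 2 of vehicle or tumor 2 or 4 of the 48 h group was left out (adjusted p between 0.062 and 0.0777). USH1C, the scaffold named harmonin, stayed between -0.11 and 0.086 in log2 fold change and passed at no time, with a mean of 265 ± 9.66 CPM in vehicle and 281 ± 7.91 CPM at 48 h. With the GC trend removed, USH1C was lower at 8 h (-0.28, adjusted p = 0.0111), and its counts per TPM at 8 h were -0.53 on the log2 scale relative to vehicle.

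The genes of the actin core moved in both directions. VIL1, villin, which bundles and severs actin, was called higher at 48 h. Its vehicle tumors held 258, 239, 212 and 215 CPM, its 8 h tumors 258, 230.1, 219.8 and 215 CPM and its 48 h tumors 351, 388, 344 and 294 CPM. The 48 h tumors lay above all tumors of both other groups. VIL1 differed from vehicle by -0.00038 (SE 0.12, adjusted p = 0.999) at 8 h and by 0.58 (SE 0.12, adjusted p = 0.00353) at 48 h, and 48 h exceeded 8 h by 0.58 (SE 0.12, adjusted p = 0.00133). The 8 h value depended on the unit: VIL1 averaged 111 TPM in vehicle and 69.03 TPM at 8 h, and was lower on log2(TPM + 1) by a difference of -0.69 (adjusted p = 0.011). With the GC trend removed, VIL1 also passed at 2 h (0.34, adjusted p = 0.0282) and at 4 h (0.35, adjusted p = 0.0323), and DESeq2 called it at 4 h (0.37, adjusted p = 0.00904). The difference from vehicle at 48 h was 0.41 on log2(TPM + 1) and did not pass (adjusted p = 0.291).

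PLS1, plastin 1, another bundling protein of microvilli, fell and then returned. It held 116, 115, 116 and 94.3 CPM in vehicle, 51.1, 37.9, 31.5 and 30.6 CPM at 8 h and 127, 121, 109.5 and 88.1 CPM at 48 h. Every 8 h tumor was below every vehicle and 48 h tumor. PLS1 differed from vehicle by -0.89 (SE 0.30, adjusted p = 0.0336) at 2 h, -1.54 (SE 0.31, adjusted p = 0.000411) at 8 h and 0.015 (SE 0.30, adjusted p = 0.985) at 48 h, and 48 h exceeded 8 h by 1.56 (SE 0.31, adjusted p = 0.000798). The 2 h call ended when any of 6 tumors was left out (1, 2 or 3 of vehicle, 2, 3 or 4 of the 2 h group, adjusted p between 0.0652 and 0.103) and with the GC trend removed (-0.71, adjusted p = 0.0567).

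ESPN, espin, which crosslinks actin into stiff bundles, was low in vehicle and rose at all 5 times. It held 5.76, 5.33, 4.73 and 5.92 CPM in vehicle, 28.02, 24.1, 33.3 and 22.8 CPM at 8 h and 8.68, 18.2, 7.12 and 13.9 CPM at 48 h. All treated tumors at both times were above vehicle, and the 8 h tumors were above the 48 h tumors. Against vehicle the log2 fold change was 2.31 (SE 0.28, adjusted p = 1.34e-06) at 8 h and 1.14 (SE 0.27, adjusted p = 0.00888) at 48 h, and the decline from 8 h to 48 h was -1.18 (SE 0.27, adjusted p = 0.00224). At 48 h it was 0.86 on log2(TPM + 1) (adjusted p = 0.122) and 0.86 without tumor 2 (adjusted p = 0.0628).

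EPS8L3, of a family that caps and bundles actin, held 133, 131, 149.8 and 143 CPM in vehicle, 122, 97.04, 115 and 91.2 CPM at 4 h and 195, 242, 216 and 276 CPM at 48 h. The 48 h tumors were all above and the 4 h tumors all below vehicle, with log2 fold changes of 0.74 (SE 0.15, adjusted p = 0.00304) and -0.39 (SE 0.15, adjusted p = 0.0902). MYO15B, an unconventional myosin gene, held 172, 214, 284 and 239 CPM in vehicle and 461, 499, 406 and 602 CPM at 48 h, without overlap, a log2 fold change of 1.11 (SE 0.18, adjusted p = 0.000406). MYO1A, the motor that ties the actin core to the membrane, passed at no time, with log2 fold changes between -0.095 at 2 h and 0.32 at 4 h.

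Among brush border hydrolases, TREH and ALPI rose from low levels. TREH, trehalase, which splits trehalose into glucose, held 0.537, 0.678, 0.448 and 0.444 CPM in vehicle. It held 2.67, 2.99, 3.79 and 3.43 CPM at 2 h and 5.19, 3.92, 2.87 and 3.595 CPM at 4 h. At 8 h it reached 6.66, 9.73, 10.7 and 10.02 CPM. It held 5.28, 8.03, 6.38 and 7.92 CPM at 24 h and 4.49, 4.41, 2.001 and 2.898 CPM at 48 h. Every treated tumor was above every vehicle tumor, and all 8 h tumors were above all 2, 4 and 48 h tumors.

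TREH was 17.6-fold higher in mean CPM at 8 h and 6.55-fold higher at 48 h than in vehicle. Its log2 fold change was 2.60 (SE 0.28, adjusted p = 2.84e-06) at 2 h, 4.12 (SE 0.29, adjusted p = 1.69e-09) at 8 h and 2.69 (SE 0.28, adjusted p = 1.26e-05) at 48 h. The step from 2 h to 8 h was 1.52 (SE 0.26, adjusted p = 0.00116) and the decline from 8 h to 48 h was -1.42 (SE 0.25, adjusted p = 0.000259). TREH was the only one of the 30 genes called between 2 h and 8 h, where 1.05% of all genes were higher and 3.41% lower. The 4 vehicle tumors held 43 TREH counts in all, and its mean TPM, 0.678 in vehicle, 4.03 at 4 h and 5.39 at 8 h, rose less than its CPM.

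ALPI, intestinal alkaline phosphatase, is similar in sequence to ALPP and ALPG. Reads could be divided among them, which was not measured, so the values of ALPI are uncertain. ALPI held 0.195, 0.0968, 0.747 and 0.0988 CPM in vehicle, 23 counts in all. It held 1.92, 2.14, 1.65 and 4.05 CPM at 2 h and 1.23, 1.15, 1.48 and 0.858 CPM at 4 h. At 8 h it held 1.698, 0.9803, 5.99 and 1.12 CPM and at 48 h 1.396, 2.605, 0.834 and 4.66 CPM, with every tumor at these times above vehicle. ALPI differed from vehicle by a log2 fold change of 3.08 (SE 0.69, adjusted p = 0.00269) at 2 h, 3.08 (SE 0.69, adjusted p = 0.00106) at 8 h, 2.29 (SE 0.69, adjusted p = 0.0161) at 24 h and 3.03 (SE 0.69, adjusted p = 0.00589) at 48 h. The 24 h group overlapped vehicle. The 4 h call, at 2.03 (SE 0.69, adjusted p = 0.0482), was lost without any of 13 single tumors, and the 24 h call without vehicle tumor 2 or 24 h tumor 2.

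MEP1A, the alpha subunit of meprin, a metalloprotease, held 0.977, 1.99, 4.53 and 3.26 CPM in vehicle, 8.95, 5.13, 21.7 and 3.63 CPM at 8 h and 16.6, 28.97, 6.503 and 20.2 CPM at 48 h. The 8 h tumors overlapped vehicle and the 48 h tumors did not. Its log2 fold change was 1.83 (SE 0.61, adjusted p = 0.0476) at 4 h (lost without any of 15 single tumors), 1.88 (SE 0.61, adjusted p = 0.0177) at 8 h and 2.75 (SE 0.62, adjusted p = 0.00684) at 48 h. The 8 h value fell to 1.14 (adjusted p = 0.135) without tumor 3. MGAM, maltase-glucoamylase, passed at 8 h alone, at 2.10 (SE 0.57, adjusted p = 0.00462), where tumor 3 held 10.4 CPM and the others 1.73 to 2.33 CPM. Without that tumor the MGAM value was 1.07 (adjusted p = 0.0887). Reads could also be shared with its neighbour MGAM2, which was not measured and adds to its uncertainty.

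DPP4, a peptidase that removes dipeptides from peptide ends, held 254 ± 28.1 CPM in vehicle, 280 ± 46.15 CPM at 4 h, 134 ± 38.8 CPM at 8 h and 236 ± 75.8 CPM at 48 h (SD, n = 4). It was lower at 8 h, at -0.92 (SE 0.29, adjusted p = 0.0135), and differed by -0.11 (SE 0.29, adjusted p = 0.874) at 48 h. The 8 h call was lost without tumor 3 (-0.76, adjusted p = 0.0547). ANPEP, aminopeptidase N, passed at no time, with log2 fold changes from -0.075 at 2 h to 0.34 at 24 h. SI, sucrase-isomaltase, was not tested: it summed to 4 counts in the 4 vehicle tumors and 104 counts in the 20 treated tumors, and its highest tumor held 0.975 CPM, again tumor 3 of the 8 h group.

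Of 6 transporter and lipid handling genes, 4 were higher at 48 h. SLC5A1, the sodium-glucose cotransporter SGLT1, held 14.8, 16.8, 18.96 and 32.1 CPM in vehicle. It held 28.1, 16.97, 29.4 and 15.5 CPM at 8 h, 42.98, 98.2, 79.7 and 65.4 CPM at 24 h and 48.8, 76.4, 45.7 and 56.9 CPM at 48 h. The 8 h tumors overlapped vehicle, and all 24 h and 48 h tumors were above both. SLC5A1 differed from vehicle by 0.93 (SE 0.27, adjusted p = 0.0135) at 2 h, 0.12 (SE 0.27, adjusted p = 0.729) at 8 h, 1.79 (SE 0.27, adjusted p = 7.14e-05) at 24 h and 1.46 (SE 0.27, adjusted p = 0.00114) at 48 h. The step from 8 h to 24 h was 1.67 (SE 0.27, adjusted p = 0.000406). SLC5A1 was the 1 of 30 genes called between those times, where 5.3% of all genes were higher and 1.58% lower.

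SLC26A3, the chloride-bicarbonate exchanger of the colon, was high at 4 h and again at 24 h and 48 h. It held 5.52, 7.07, 16.4 and 10.8 CPM in vehicle, 55.2, 35.03, 95.3 and 50.5 CPM at 4 h, 15.02, 20.1, 19.4 and 11.9 CPM at 8 h and 66.6, 74.4, 44.02 and 36.7 CPM at 48 h. The 4 h and 48 h tumors were above all vehicle and 8 h tumors. At 24 h the tumors held 7.57, 34.6, 55.99 and 55.4 CPM, and tumor 1 lay within the vehicle range. SLC26A3 differed from vehicle by 2.57 (SE 0.46, adjusted p = 0.000558) at 4 h, 0.74 (SE 0.45, adjusted p = 0.188) at 8 h, 1.95 (SE 0.45, adjusted p = 0.00356) at 24 h and 2.48 (SE 0.46, adjusted p = 0.00154) at 48 h. Between treated times, 4 h exceeded 2 h by 1.71 (SE 0.45, adjusted p = 0.0161) and 48 h exceeded 8 h by 1.74 (SE 0.45, adjusted p = 0.00676).

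SLC9A3, the sodium-hydrogen exchanger NHE3, held 171, 175, 112 and 147 CPM in vehicle, 428, 313, 378 and 380.3 CPM at 24 h and 301, 268, 264 and 141 CPM at 48 h. The 24 h tumors were all above vehicle, and at 48 h tumor 4 lay within the vehicle range. Its log2 fold change was 1.31 (SE 0.20, adjusted p = 6.77e-05) at 24 h and 0.69 (SE 0.20, adjusted p = 0.0265) at 48 h. The 48 h call was lost with the GC trend removed (0.54, adjusted p = 0.105), on log2(TPM + 1) (0.55, adjusted p = 0.154) and with tumor 3 or 4 of vehicle or tumor 1, 2 or 3 of the 48 h group left out (adjusted p between 0.0583 and 0.0886). SLC6A19, the neutral amino acid transporter B0AT1, held 8 counts in the vehicle tumors together, and 1.63, 0.151, 5.99 and 0.777 CPM at 8 h. It was higher at 8 h by 4.35 (SE 1.23, adjusted p = 0.00683) and at 24 h by 3.68 (SE 1.23, adjusted p = 0.0296), while at 48 h the value was 3.54 (SE 1.22, adjusted p = 0.0706). The 8 h call was lost without tumor 3 (3.04, adjusted p = 0.0519), and the 24 h call without any vehicle tumor or without 24 h tumor 1 or 2 (adjusted p between 0.051 and 0.0941).

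FABP2, the intestinal fatty acid binding protein, held 0.781, 0.581, 2.34 and 2.07 CPM in vehicle, 2.29, 1.28, 10.6 and 1.9 CPM at 8 h and 5.04, 10.4, 2.168 and 12.8 CPM at 48 h. At 48 h tumor 3 lay within the vehicle range and the other tumors above it. The log2 fold change was 1.84 (SE 0.62, adjusted p = 0.0327) at 2 h, 1.48 (SE 0.62, adjusted p = 0.0584) at 8 h and 2.39 (SE 0.63, adjusted p = 0.0165) at 48 h, and leaving out tumor 1 or 2 of vehicle or tumor 2 or 4 of the 48 h group ended the 48 h call (adjusted p between 0.0567 and 0.0681). MTTP, which loads lipid onto chylomicrons, held under 1 CPM in every tumor and passed at no time.

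Among the remaining surface and secreted products, MUC13, a transmembrane mucin, had the highest mean TPM of the genes called higher at 48 h. Its deposited TPM averaged 166 in vehicle and 592 at 48 h. It held 260.4, 262, 466 and 366 CPM in vehicle, 576, 2247, 1701 and 1888 CPM at 24 h and 1096, 1584, 749 and 1681 CPM at 48 h. Every treated tumor at both times was above vehicle, and tumor 1 at 24 h stood below the other 3. MUC13 differed from vehicle by 1.69 (SE 0.34, adjusted p = 0.00119) at 2 h, 2.24 (SE 0.34, adjusted p = 8.78e-05) at 24 h and 1.92 (SE 0.34, adjusted p = 0.000883) at 48 h.

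GUCA2A, guanylin, the peptide that activates guanylate cyclase C, held 0.342, 0.581, 0 and 0.198 CPM in vehicle, 23 counts in all, and 4.99, 2.55, 2.33 and 3.12 CPM at 48 h, with no overlap. GUCA2A differed from vehicle by 3.03 (SE 0.79, adjusted p = 0.00748) at 2 h, 3.96 (SE 0.80, adjusted p = 0.000433) at 8 h and 3.50 (SE 0.79, adjusted p = 0.00585) at 48 h, and the 2 h group overlapped vehicle. KRT20, a keratin of mature gut surface cells, held 0.342, 0.484, 0.348 and 0.346 CPM in vehicle, 0.588, 0.452, 0.139 and 0 CPM at 8 h and 0.848, 1.97, 0.945 and 3.35 CPM at 48 h. Only the 48 h group lay wholly above vehicle. Its log2 fold change was -0.32 (SE 0.66, adjusted p = 0.717) at 8 h, 1.59 (SE 0.61, adjusted p = 0.0555) at 24 h and 2.20 (SE 0.61, adjusted p = 0.022) at 48 h. From 8 h to 48 h it rose by 2.52 (SE 0.64, adjusted p = 0.00528). The vehicle tumors held 31 KRT20 counts in all, and its call against vehicle ended when tumor 1, 3 or 4 of vehicle or tumor 2 or 4 of the 48 h group was left out (adjusted p between 0.0507 and 0.124).

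CDH17, the liver-intestine cadherin, and LGALS4, galectin 4, were abundant before treatment, at means of 406 and 1150.0 TPM in vehicle. CDH17 held 1179, 1098, 1219 and 929 CPM in vehicle, 660.4, 692, 527 and 595 CPM at 8 h and 1216, 926, 1021 and 853 CPM at 48 h. Every 8 h tumor was below vehicle and the 48 h tumors overlapped it. The 4 h tumors, at 981, 863, 1185 and 1132 CPM, also overlapped vehicle. CDH17 was lower at 8 h, at -0.84 (SE 0.19, adjusted p = 0.00107), and at 24 h, at -0.66 (SE 0.19, adjusted p = 0.0116), and differed by -0.14 (SE 0.19, adjusted p = 0.729) at 48 h. LGALS4 was higher at 8 h by 0.46 (SE 0.13, adjusted p = 0.00806) and at 24 h by 0.44 (SE 0.13, adjusted p = 0.0185), and both calls were lost with the GC trend removed (0.23, adjusted p = 0.168, and 0.24, adjusted p = 0.184).

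By the first time called higher, 14 genes passed at 2 h, among them CDX2, CDHR2, CDHR5, ESPN, TREH, ALPI and MUC13. MEP1A and SLC26A3 first passed at 4 h, LGALS4, MGAM and SLC6A19 at 8 h, HNF4A at 24 h, and VIL1 and KRT20 at 48 h. The 8 others were called higher at no time. With the GC trend removed, VIL1 first passed at 2 h and HNF4G, one of the 8, at 8 h. The highest log2 fold change fell at 2 h for 2 genes, at 4 h for 4, at 8 h for 11, at 24 h for 6 and at 48 h for 7. CDX2 was at its highest at 8 h and its log2 value at 48 h was 47.3% of that. This peak rested on tumor 3, since without it the 8 h value was 1.07, below the 1.55 at 2 h. Among the 17 genes called at 48 h, the 48 h share of the highest log2 value ran from 49.1% for ESPN to 100% for the 5 that peaked at 48 h. It was 65.4% for TREH, 71.2% for CDHR2, 85.4% for MUC13, 88.4% for GUCA2A, 96.4% for SLC26A3 and 98.3% for ALPI. A single vehicle group and calls near the threshold limit what these orders show, and the differences between genes in timing were not tested. Times count from the last of 3 doses given every other day. Effects of the earlier doses and of the last cannot be told apart, so the first time called is not an onset.

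Comparisons between treated times used no vehicle tumor. From 8 h to 48 h, 7 of 30 genes rose and 2 fell, where 17.1% of all genes rose and 11.3% fell. The 7 that rose were KRT20, SLC26A3, PLS1, SLC5A1, DPP4, CDH17 and VIL1, and the 2 that fell were TREH and ESPN. PLS1, DPP4 and CDH17 were among them after being below vehicle at 8 h. DPP4 passed at 0.81 (SE 0.29, adjusted p = 0.0407), and its call was lost without any of 12 single tumors. The other 21 genes did not pass. Among them, CDX2 differed by -0.98 (SE 0.49, adjusted p = 0.136), CDHR2 by -0.33 (SE 0.14, adjusted p = 0.0802), MUC13 by 0.15 (SE 0.33, adjusted p = 0.759) and ALPI by -0.052 (SE 0.60, adjusted p = 0.96), which does not show that their levels at 8 h and 48 h were equal.

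**Figure D3:**
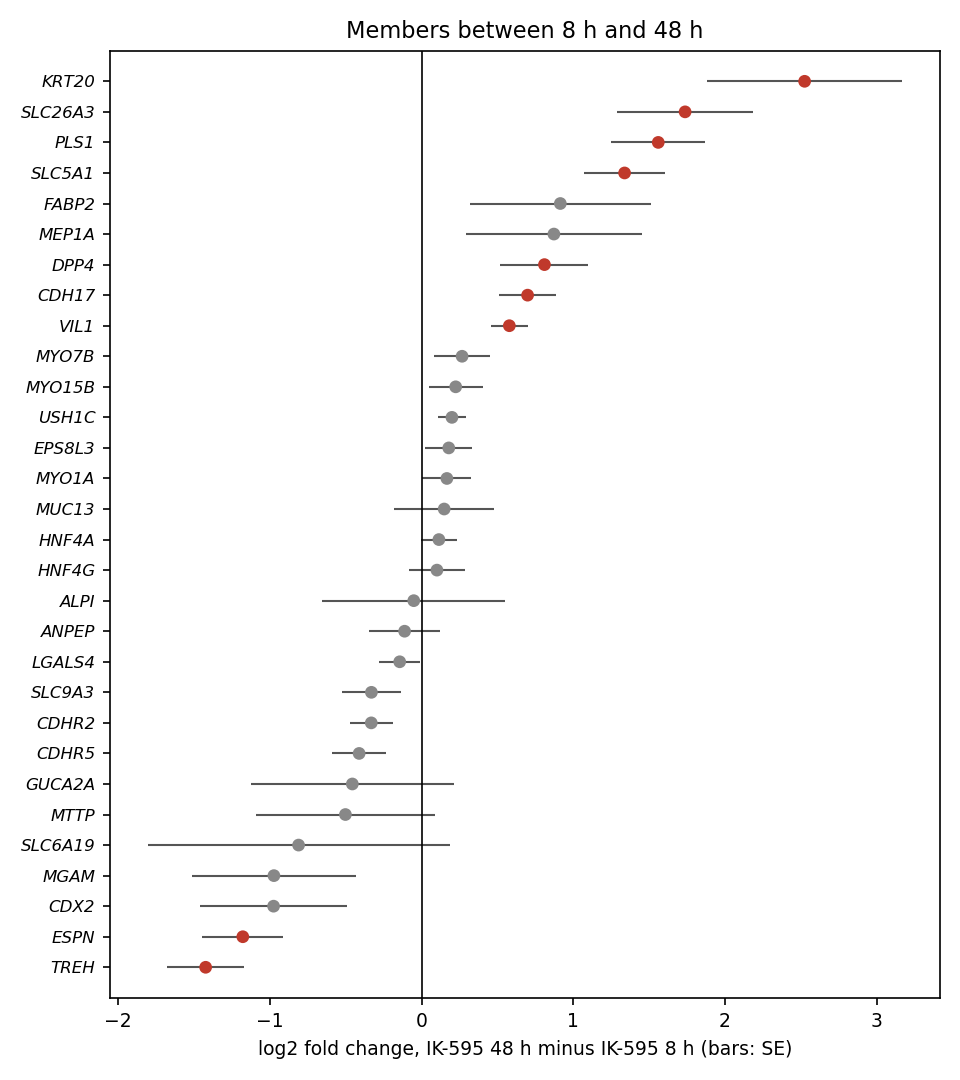
Log2 fold change from 8 h to 48 h after the last dose for 30 genes, with bars of 1 standard error and red points where the adjusted p was under 0.05. Zero marks no difference. KRT20 stands highest at 2.52 and TREH lowest at -1.42.

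CDHR5, MYO7B, EPS8L3 and MYO15B were lower at 4 h than at 2 h and 8 h. Comparisons of 4 h with 2 h and of 8 h with 4 h were added after these values had been seen. From 2 h to 4 h, 4 of 30 genes fell (13.3%) and 2 rose (6.67%), near the shares of all genes, of which 9% fell and 6.89% rose. The dip is thus described for these 4 genes and not for the list. The changes were -1.15 (SE 0.19, adjusted p = 0.000765) for MYO7B, -1.05 (SE 0.16, adjusted p = 0.000354) for EPS8L3, -0.88 (SE 0.18, adjusted p = 0.00363) for MYO15B and -0.68 (SE 0.18, adjusted p = 0.0162) for CDHR5, while HNF4G and SLC26A3 rose. Single left-out tumors ended the calls of CDHR5 (2 h tumor 3 or 4, 4 h tumor 2 or 4), HNF4G (2 h tumor 2, 3 or 4, 4 h tumor 3) and SLC26A3 (2 h tumor 4), with adjusted p between 0.0501 and 0.0774. From 4 h to 8 h, 7 genes rose and 5 fell, where 11.6% of all genes rose and 15.5% fell. EPS8L3 rose by 0.95 (SE 0.16, adjusted p = 0.000999), CDHR5 by 0.91 (SE 0.18, adjusted p = 0.0019) and TREH by 1.25 (SE 0.25, adjusted p = 0.00206), whereas the falls were -1.44 (SE 0.31, adjusted p = 0.00308) for PLS1, -1.06 (SE 0.29, adjusted p = 0.0116) for DPP4, -0.75 (SE 0.19, adjusted p = 0.00678) for CDH17 and -1.83 (SE 0.45, adjusted p = 0.00676) for SLC26A3. VIL1 fell and CDHR2, MYO7B, ESPN and MYO15B rose by smaller amounts. The VIL1 call was lost without any of 6 single tumors, and the ESPN call without 4 h tumor 2 or 8 h tumor 3.

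GC content moved with the same groups. The trend of log2 CPM with transcript GC content, over all tested genes and relative to the mean tumor, was negative in all vehicle and 4 h tumors, at -0.0679 to -0.174 per 10 GC points, and positive in all 8 h tumors, at 0.104 to 0.136. The 2 h tumors ran from -0.0716 to 0.139. Median GC content was 54.4% for the 30 genes and 48.8% for all tested genes. With each tumor's trend removed, the change from 2 h to 4 h was -0.89 (adjusted p = 0.00254) for MYO7B, -0.81 (adjusted p = 0.00118) for EPS8L3 and -0.46 (adjusted p = 0.0437) for MYO15B, while HNF4G, at 0.47 (adjusted p = 0.0576), and CDHR5, at -0.27 (adjusted p = 0.234), no longer passed. From 4 h to 8 h the count of rises went from 7 to 3, and that over all genes from 2114 to 1552. CDHR2, ESPN, MYO7B and MYO15B no longer passed, and EPS8L3 did at 0.69 (adjusted p = 0.00241). At 48 h against vehicle the count went from 17 to 16, with MYO7B and SLC9A3 lost and HNF4G gained, and that over all genes from 1007 to 850. Tumor 2 of the 4 h group was lowest of its group for 16 of 30 genes. It also had the highest fibroblast markers and the lowest depth, whose part was not tested. The like share of all tested genes was not computed, so this count cannot be read as particular to these genes. With the mean log2 CPM of the fibroblast and pericyte markers as a covariate, 14 genes rather than 8 were higher at 4 h. The count of all genes under this covariate is not given here.

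**Figure D4:**
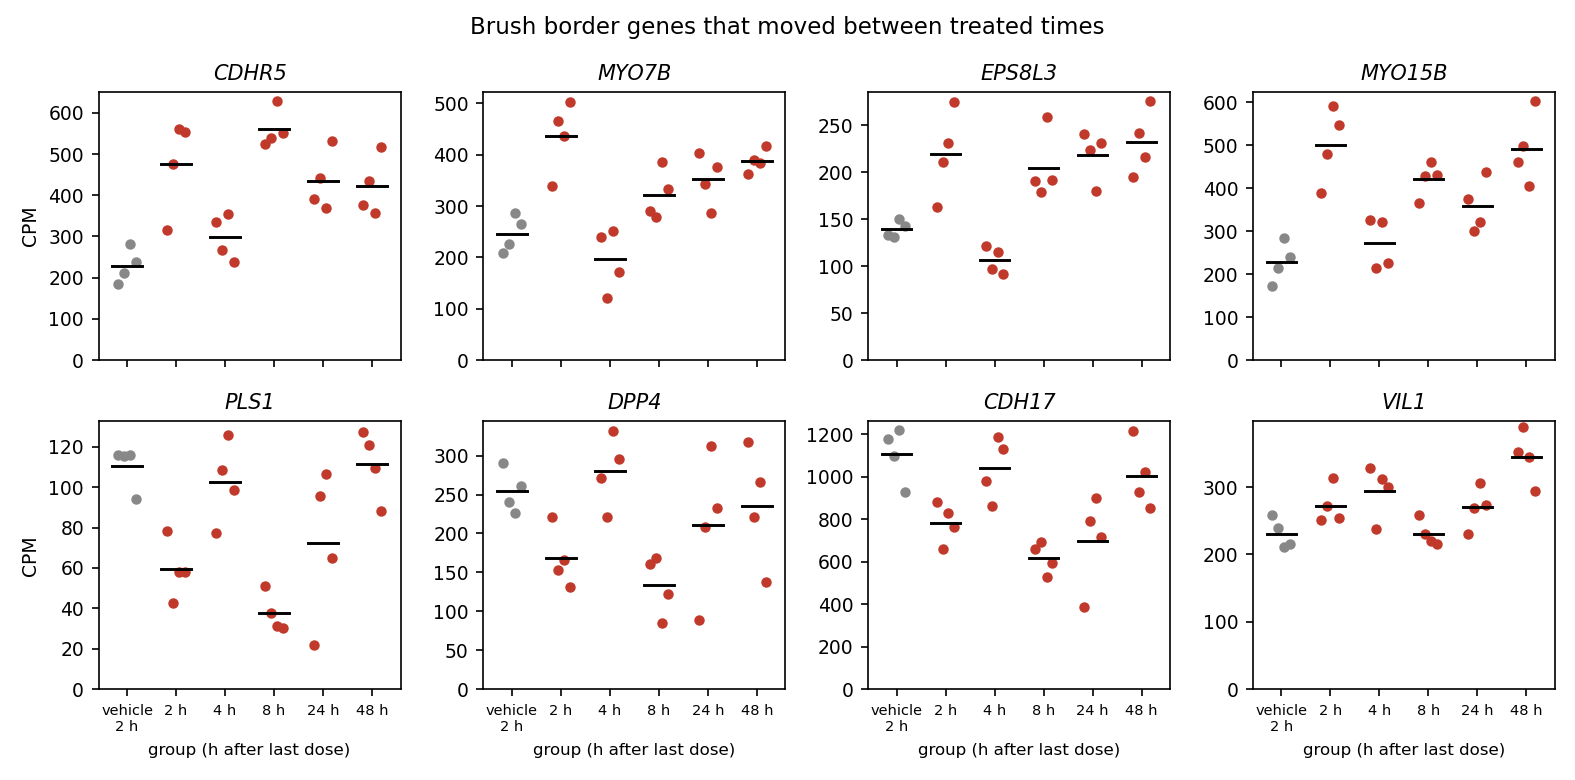
CPM of 8 brush border genes in each of 24 tumors by group, with a point per tumor and a line at the group mean. The top row shows the genes that fell from 2 h to 4 h, so every 4 h mean there is below the 2 h and 8 h means. In the bottom row PLS1, DPP4 and CDH17 have their lowest mean at 8 h and overlap vehicle at 48 h.

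Within a treated group, the tumor with the most CDX2 was often also the highest for certain effectors, a pattern noticed in these values and given without a test. Only the highest tumor was compared, and the order of the others need not match. At 24 h tumor 3 held less CDX2 than tumor 1 (5.24 and 7.49 CPM) but more MUC13 (1701 and 576 CPM). CDX2 was highest in tumor 4 at 2 h, tumor 3 at 4 h, tumor 3 at 8 h, tumor 2 at 24 h and tumor 4 at 48 h. The same tumor was highest for ALPI, FABP2 and MUC13 in all 5 treated groups, and for MYO7B, MGAM, MEP1A and SLC5A1 in 4 of 5. It was never the highest for CDHR2, VIL1, MYO1A, SLC9A3, LGALS4 or GUCA2A. Over the 29 other genes this held in 64 of 145 gene and group pairs (44.1%). Over all 18242 tested genes it held in 28.6%, and 1.37% of genes matched in all 5 groups. In vehicle, CDX2 was highest in tumor 4, and ALPI, FABP2 and MUC13 in tumor 3. The tumors share library preparation, depth and cell mix across genes, and the part of these in the pattern was not tested.

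At 8 h this tumor, number 3, was highest for 16 of the 30 genes, and for 37.1% of all tested genes. Without it, 11 genes were higher than vehicle and 2 lower, against 15 and 3 with it. Over all genes, 2927 were higher and 3871 lower without it, against 3755 and 4328 with it. At 24 h tumor 1 was lowest for 18 genes, and at 48 h tumor 3 was lowest for 16. The shares of all tested genes lowest in these tumors were not computed, so these counts cannot be read as particular to the listed genes.

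**Figure D5:**
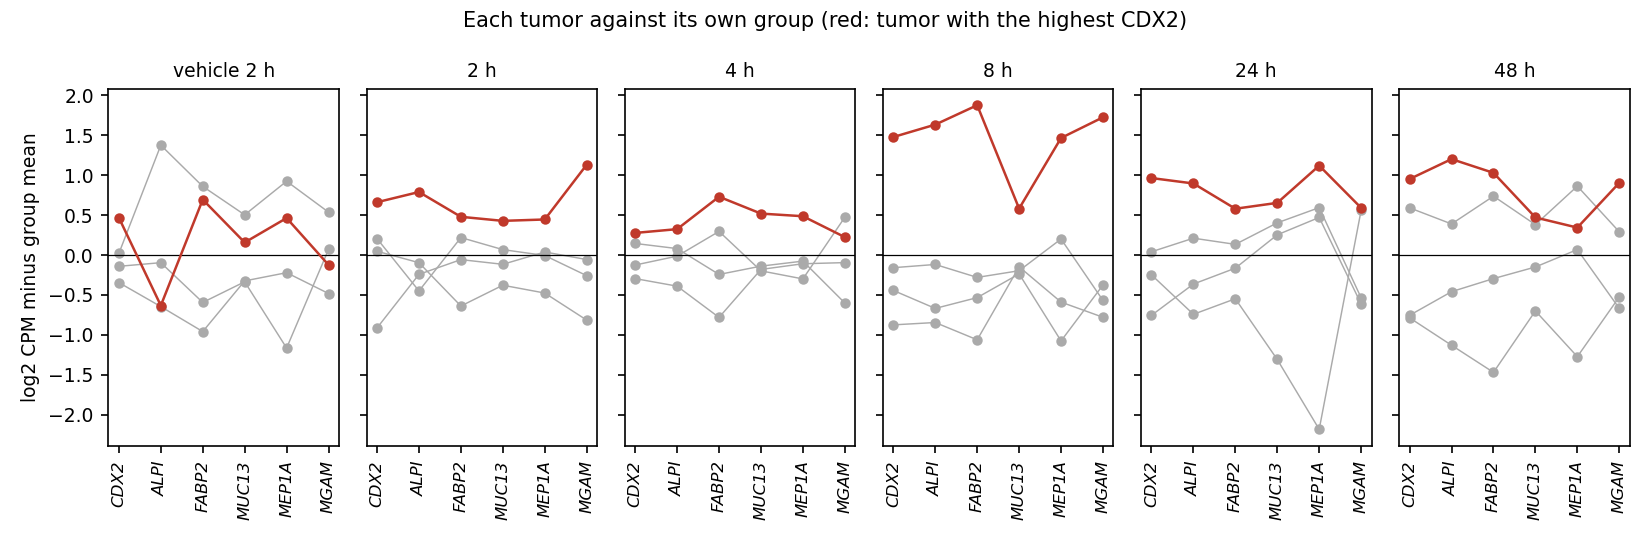
Log2 CPM of CDX2 and 5 effector genes in each tumor minus the mean of its own group, by group, with lines joining the values of 1 tumor and red for the tumor with the highest CDX2. The 5 effectors are among those that matched CDX2 in most treated groups. In each of the 5 treated groups the red line is above the others at ALPI, FABP2 and MUC13, and in vehicle it is not.

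Related genes outside the 32 were counted from lists of the same pathways, also chosen with earlier results of these data known. The shares of all genes given above for 8 h and 48 h apply to them. Of 27 further brush border structure genes tested, 10 were higher and 0 lower at 48 h (median log2 fold change 0.39), while at 8 h 7 were higher and 10 lower. PDZK1, a scaffold for apical transporters, rose by 3.61 (SE 0.28, adjusted p = 3.95e-09) at 8 h and by 2.19 (SE 0.27, adjusted p = 4.67e-05) at 48 h. CEACAM1, an adhesion molecule of the microvillus surface, was lower at 8 h, at -2.31 (SE 0.37, adjusted p = 4.80e-05), and differed by 0.73 (SE 0.35, adjusted p = 0.225) at 48 h. CEACAM5 was higher at 48 h by 2.29 (SE 0.70, adjusted p = 0.0438). RAB11A, a regulator of apical recycling, passed at no time.

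Of 21 other gut and foregut transcription factors, 6 were higher and 3 lower at 8 h, and 3 higher and 0 lower at 48 h, with a median log2 fold change of 0.14. ELF3, an epithelial factor, rose by 1.46 (SE 0.26, adjusted p = 0.000115) at 8 h and 0.83 (SE 0.26, adjusted p = 0.042) at 48 h. PRDM1, which represses the adult enterocyte program in the fetal gut, was lower at 8 h, at -1.76 (SE 0.45, adjusted p = 0.00302), and MAF, a factor of mature enterocytes, was higher by 1.70 (SE 0.68, adjusted p = 0.0487). Both were near vehicle at 48 h, at -0.12 and -0.20 on the log2 scale. PPARA passed at no time.

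Of 12 further digestive hydrolases, 5 were higher and 1 lower at 8 h, and 4 higher and 0 lower at 48 h (median 0.49). TMPRSS2, a transmembrane protease, rose by 1.65 (SE 0.27, adjusted p = 0.000478) at 48 h. ALPP and ALPG, which could share reads with ALPI and with each other, were higher at 48 h by 1.99 (SE 0.47, adjusted p = 0.00919) and 2.27 (SE 0.56, adjusted p = 0.013). MGAM2 passed at no time. Of 23 further transporters, 8 were higher and 4 lower at 8 h, and 4 higher and 0 lower at 48 h (median 0.16). SLC26A6, an anion exchanger, rose by 1.79 (SE 0.25, adjusted p = 7.20e-06) at 8 h and 1.02 (SE 0.24, adjusted p = 0.00893) at 48 h, SLC9A2 was lower at 8 h, at -1.83 (SE 0.39, adjusted p = 0.000834), and SLC51B was higher at 8 h by 2.14 (SE 0.38, adjusted p = 0.000109). CYBRD1 passed at no time.

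Of 15 lipid and vitamin A genes, 5 were higher and 3 lower at 8 h, and 5 higher and 0 lower at 48 h (median 0.31). MOGAT2, which rebuilds dietary triglyceride, rose by 2.998 (SE 0.53, adjusted p = 0.000155) at 8 h and 2.24 (SE 0.52, adjusted p = 0.00834) at 48 h, and CD36, a fatty acid receptor also made by fat and endothelial cells, by 2.85 (SE 0.59, adjusted p = 0.000523) and 2.61 (SE 0.58, adjusted p = 0.00548). GPAT3 was lower at 8 h, at -2.72 (SE 0.19, adjusted p = 1.69e-09). SCARB1 passed at no time.

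Of 14 mature colonocyte genes, 10 were higher and 0 lower at 8 h, and 8 higher and 0 lower at 48 h (median 1.79). The list includes PHGR1, BTNL3, BTNL8, RNF186 and AQP7, which were known from earlier results of these data to be high, so its count is no independent evidence. PHGR1 rose by 5.98 (SE 0.82, adjusted p = 1.19e-05) at 8 h and 5.38 (SE 0.80, adjusted p = 0.000341) at 48 h, and BTNL3, which could share reads with BTNL8, by 4.10 (SE 0.47, adjusted p = 1.30e-06) and 4.32 (SE 0.48, adjusted p = 2.48e-05). AQP7 rose by 4.27 (SE 0.33, adjusted p = 3.95e-09) at 8 h and 1.51 (SE 0.30, adjusted p = 0.00232) at 48 h. TSPAN8 passed at no time.

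Of 8 goblet, secretory and enteroendocrine genes tested of 20, 2 were higher at 48 h: AGR3 by 2.40 (SE 0.69, adjusted p = 0.0277) and FCGBP by 0.46 (SE 0.13, adjusted p = 0.0255). LYZ was lower at 8 h, at -0.996 (SE 0.24, adjusted p = 0.00168), and TFF3 passed at no time. Of 13 stem and crypt genes, 2 were higher and 5 lower at 8 h, and 2 higher and 2 lower at 48 h. LGR5, the marker of crypt stem cells, was lower at 48 h, at -1.62 (SE 0.35, adjusted p = 0.00427), as was CD44, at -1.27 (SE 0.34, adjusted p = 0.0191), while AXIN2, a target of Wnt signalling, was higher by 1.22 (SE 0.26, adjusted p = 0.00415). LRIG1 passed at no time. Of 12 gastric and pancreatic duct genes, 3 were higher and 0 lower at 8 h, and 1, MUC1, was higher at 48 h by 1.71 (SE 0.37, adjusted p = 0.00442). AQP1 and MUC6 were higher at 8 h by 1.89 (SE 0.41, adjusted p = 0.00098) and 0.89 (SE 0.35, adjusted p = 0.04), and KRT19 passed at no time. Each of these lists is small, and none was tested as a set.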

How the data were processed

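Poly(A) RNA of 24 tumors was sequenced, and the authors deposited, per gene and tumor, an estimated count and a TPM value. Per the submitters' processing notes, the tools were bcl2fastq 2.17, FastQC 0.12.1 and Salmon 0.14.1 with genome build GRCh38.p13. The treatment of mouse reads, the strand setting and the annotation release were not given in the sources used here. Groups came from the sample titles. The deposited estimated counts were rounded to whole numbers. Rows without a gene symbol, with 0.0343% of counts, were kept and went through the same low-count filter and tests. Depth was 10.52 to 20.64 M estimated counts per tumor, which limits genes under about 1 CPM.

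The main test was edgeR 4.0.16 in R 4.3.3 (quasi-likelihood, TMM scaling, filterByExpr by group) over all 24 tumors, with Benjamini-Hochberg adjustment over 18242 genes and calls at adjusted p under 0.05. Errors beside log2 fold changes are standard errors, taken as the absolute log2 fold change over the square root of the F statistic. The log2 CPM values of single tumors use a prior count of 2. Alternatives used DESeq2 1.42.0, limma 3.58.1 on counts and on log2(TPM + 1) or log2(TPM + 0.1), other scalings, filters and thresholds, a covariate, a replicate block, and each tumor left out. Removing a GC trend, leaving out 3 tumors together (4 h tumor 2, 8 h tumor 3, 24 h tumor 1), and comparing 4 h with 2 h and 8 h with 4 h were added after seeing the data. The edgeR fit was also run on data simulated for 8 h against vehicle, with a far smaller share of genes changed than was called in the tumors. Its outcome is not given here and bears on no result above. CPM values use TMM-scaled totals.

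The genes and lists were chosen with earlier results of these data known. All listed genes are given. From each related list the text names up to 3 genes called at 8 h or 48 h with the largest absolute change (mean log2 CPM 1 or more), and the most expressed gene that passed at no time. The labels do not say more about how the tumors of a group differ than that they came from separate animals.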

Additional observations from a re-analysis of the deposited data

Results flagged for a closer look

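In 9 of 180 gene and group sets of 4 tumors, 1 tumor stood far from the others by its gap relative to the range, and chance alone flags about 1 in 20 such sets. On the log2 CPM scale the lowest tumors were PLS1 in vehicle tumor 4 (6.56), ANPEP in vehicle tumor 3 (7.83), MYO1A in 4 h tumor 2 (7.56) and MYO1A in 24 h tumor 1 (7.46). The highest were KRT20 in vehicle tumor 2 (-0.74), MUC13 in 4 h tumor 3 (10.12) and 8 h tumor 3 (10.71), MGAM in 8 h tumor 3 (3.39) and HNF4A in 24 h tumor 2 (7.69).

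Differences between treated times that passed edgeR's test of the difference were as follows, as log2 fold changes. From 2 h to 8 h, TREH changed by 1.52, and from 8 h to 24 h, SLC5A1 changed by 1.67. From 8 h to 48 h, the changes were 0.58 for VIL1, 1.56 for PLS1, -1.18 for ESPN, -1.42 for TREH, 0.81 for DPP4, 1.34 for SLC5A1, 1.74 for SLC26A3, 0.70 for CDH17 and 2.52 for KRT20. From 2 h to 4 h, they were 0.64 for HNF4G, -0.68 for CDHR5, -1.15 for MYO7B, -1.05 for EPS8L3, -0.88 for MYO15B and 1.71 for SLC26A3. From 4 h to 8 h, they were 0.53 for CDHR2, 0.91 for CDHR5, 0.72 for MYO7B, -0.35 for VIL1, -1.44 for PLS1, 0.90 for ESPN, 0.95 for EPS8L3, 0.63 for MYO15B, 1.25 for TREH, -1.06 for DPP4, -1.83 for SLC26A3 and -0.75 for CDH17. With the GC trend of each tumor removed, 3 rather than 7 of the rises from 4 h to 8 h passed, and 1552 rather than 2114 over all genes.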

How the results depend on the processing

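Over 320 results and 12441 alternative values, 0 calls of the listed genes changed sign. Values not called on counts did turn direction between counts and TPM, among them HNF4A, HNF4G and VIL1 at 2 h or 8 h. HNF4A then passed in the other direction at 8 h: on log2(TPM + 1) and log2(TPM + 0.1) it was -0.51 and -0.53 against vehicle and -0.75 and -0.76 against 4 h, and the cause was not tested. Of the 17 calls at 48 h, 11 held under every alternative at the same threshold and 6 (ESPN, FABP2, KRT20, MYO7B, SLC9A3, VIL1) did not. The like counts were 9 of 15 at 2 h, 5 of 8 at 4 h, 11 of 18 at 8 h, 10 of 19 at 24 h and 8 of 9 from 8 h to 48 h.

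Counts that moved by over 1.5 times follow, and their causes were not tested except that stricter thresholds call fewer genes. Counts of all genes under each setting are not given beside these or beside the counts with a tumor left out. With an absolute log2 fold change over 1, the genes higher were 9 at 2 h, 11 at 24 h, 11 at 48 h, 4 from 8 h to 48 h, 1 from 2 h to 4 h and 1 from 4 h to 8 h. Those lower were 0 at 2 h, 1 at 8 h, 0 at 24 h, 2 from 2 h to 4 h and 3 from 4 h to 8 h. With adjusted p under 0.01, 5 were higher at 4 h and 0 from 2 h to 4 h, and 0 were lower at 2 h, 0 at 24 h and 3 from 4 h to 8 h. With DESeq2, 2 were lower at 2 h, 1 lower from 2 h to 8 h, 4 higher from 8 h to 24 h, 4 lower from 8 h to 48 h and 5 higher from 2 h to 4 h. RLE scaling and no filter each gave 2 lower at 2 h, and upper-quartile scaling 4 lower from 8 h to 48 h. Upper-quartile scaling also moved the median of all genes at 8 h from 0.066 to 0.208. With only the 2 groups compared, 3 were lower at 2 h, 0 lower at 24 h, 4 lower from 8 h to 48 h and 4 higher from 2 h to 4 h. The fibroblast covariate gave 2 lower at 2 h, 14 higher at 4 h and 5 lower from 8 h to 48 h. On log2(TPM + 1), 5 were higher at 4 h, and on both TPM scales 5 were lower at 8 h. On log2(TPM + 0.1), 0 were higher from 2 h to 8 h. With the GC trend removed, 0 were lower at 2 h, 1 lower at 4 h, 2 higher from 2 h to 8 h and 3 higher from 4 h to 8 h. Without 3 tumors, 3 were lower at 2 h, 2 lower from 2 h to 8 h, 7 higher from 8 h to 24 h, 6 higher from 2 h to 4 h and 4 higher from 4 h to 8 h.

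Leaving out each tumor in turn gave 11 to 16 higher and 0 to 2 lower at 2 h, 6 to 10 higher at 4 h, 11 to 17 higher and 2 to 3 lower at 8 h, 14 to 20 higher and 1 to 2 lower at 24 h, and 12 to 18 higher and 0 lower at 48 h. From 8 h to 24 h it gave 1 to 4 higher, from 8 h to 48 h 6 to 7 higher and 2 to 3 lower, from 2 h to 4 h 0 to 6 higher and 3 to 5 lower, and from 4 h to 8 h 6 to 8 higher and 4 to 5 lower.

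With the replicate block, 6 rather than 7 genes rose from 8 h to 48 h (DPP4, adjusted p = 0.0648), and the other counts were as without it. Tumors of the same number did not deviate together: 20 of 60 pairs had a correlation over 0.1, with a mean of -0.0131. Depth limits CDX1, SI, MTTP, SLC6A19 and the vehicle values of TREH, ALPI, KRT20 and GUCA2A.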

Other observations

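Estimated counts per TPM, which follow the transcript length assigned to a gene, shifted for other listed genes too, as a description. Relative to the median gene of a tumor and to vehicle, on the log2 scale, CDHR2 was -0.45 at 2 h and -0.26 at 48 h and HNF4G 0.36 at 2 h and 0.04 at 48 h. The middle 90% of 10577 expressed genes ran from -0.18 to 0.19 at 48 h.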
